A study of Mus musculus with 60 samples.

Results

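The livers of non-irradiated control mice at 2 months were set against those of control mice at 1 month, with 3 libraries in each group and so 6 of the 60 libraries of the study, chosen by their labels, and no irradiated liver entered the comparison. The study followed males of the inbred strain C3H/HeNCrl for a year after 56Fe, 16O or 28Si ions at 0.2 Gy or sham exposure. RNA of the left liver lobe was depleted of ribosomal RNA and sequenced as read pairs. The mice were 8 to 10 weeks old at the start, were shipped to another animal facility after exposure and were quarantined there for 1 month, and the groups called 1 month and 2 months were taken on days 30 and 60. Each library is 1 mouse and no mouse was sampled more than once, so that the time since sham exposure, the age of the mice, their housing and the hour of dissection cannot be told apart.

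The liver makes fatty acids and triglycerides after feeding under the transcription factors SREBP-1c and ChREBP, makes cholesterol under SREBP-2, and stores or releases glucose as glycogen under insulin, glucagon and glucocorticoids. Hepatocytes also secrete most plasma proteins, and they hold chaperones of the endoplasmic reticulum that are induced by the unfolded protein response, an acute phase programme driven by interleukin-6, and metallothioneins that bind zinc and answer to metals, glucocorticoids and inflammation. Many of these genes follow the feeding cycle and the daily clock.

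The 3 mice of a group are separate animals, so that p-values measure the spread between mice. The 6 control libraries held 15003282 to 24341338 mapped read pairs, a depth recovered from the steps between low values. The values are RPKM, reads scaled to transcript length and to the mapped reads of the library, summed over the transcripts of a gene. Reads in transcripts made up 46.6%, 47.7% and 62.4% of mapped reads at 1 month and 60.2%, 54.0% and 58.7% at 2 months, a difference of 5.40 percentage points (exact permutation test, two-sided, p = 0.4, where 3 against 3 cannot go below 0.1). The third mouse of 1 month stood apart from its group in this share and in the nuclear RNAs Malat1 and Neat1, which took 0.925% of its transcript reads against 2.77% and 2.21% in the other 1-month mice. Reads of the mitochondrial genome took 5.86%, 6.28% and 6.92% of transcript reads at 1 month and 8.32%, 9.09% and 7.90% at 2 months (exact permutation test, two-sided, p = 0.1). The 1-month mouse that stood apart in Malat1 and Neat1 was also nearer to some 2-month mice than to its own group in rank order of expression. Its Spearman correlation was 0.974 and 0.975 with the other 1-month mice, which stood at 0.986 with each other. With the 2-month mice it was 0.979, 0.973 and 0.978. Hepatocyte markers such as albumin (Alb, 14519.8, 16021 and 20964 RPKM at 1 month and 18414, 16782 and 19027 at 2 months) were high in every library. The 14 markers of sinusoidal endothelium were all lower at 2 months (median log2 fold change -0.16, 0 of 14 passing in limma and limma-voom, 1 at an unadjusted p under 0.05), and the 5 tested blood markers were all higher, with a median of 0.75 and 0 of 5 passing (3 at an unadjusted p under 0.05, and 1 in limma-voom). Their summed level was 34.05 to 91.7 RPKM at 1 month and 78.2 to 98.01 RPKM at 2 months. In limma, none of the tested markers of Kupffer cells (15), stellate cells (15), cholangiocytes (3), lymphocytes (2), neutrophils (2) or exocrine pancreas (1) passed, and those of mesothelium and fat lay below the filter. In bulk tissue, fewer cells of a type and less RNA per cell cannot be told apart.

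Of 11074 genes tested, 50 (0.452%) had a Benjamini-Hochberg adjusted p of at most 0.05 in limma and a fold of at least 2, and these are termed called. Of them 22 (0.199%) were higher and 28 (0.253%) lower at 2 months. Without any scaling of the libraries 25 were higher and 17 lower, so that the share higher moved from 44% to 59.5%. Without regard to the fold, 95 genes (0.858%) passed the adjusted p alone, 49 (0.442%) upward and 46 (0.415%) downward, and rose and fell are used below for genes that passed at that threshold. The median log2 fold change of all tested genes was -0.00, where fold changes are differences of log2(RPKM + 0.1) after scaling and positive values are higher at 2 months. The number of calls moved most with the third mouse of 1 month, and 118 genes were called without it, 46 of them among the 50. Leaving out the first or the second mouse of 2 months gave 31 calls each. A fit without a mouse has fewer livers and less power, so that a lost pass need not single out that mouse. At the same thresholds limma-voom on estimated reads called 88 of 12288 genes, and 1899 had an unadjusted p under 0.05 in it. List members in limma-voom are counted at the adjusted p alone, and the number of all genes past that was not taken. In limma 1617 of the 11074 genes had an unadjusted p under 0.05.

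**Figure D1:**
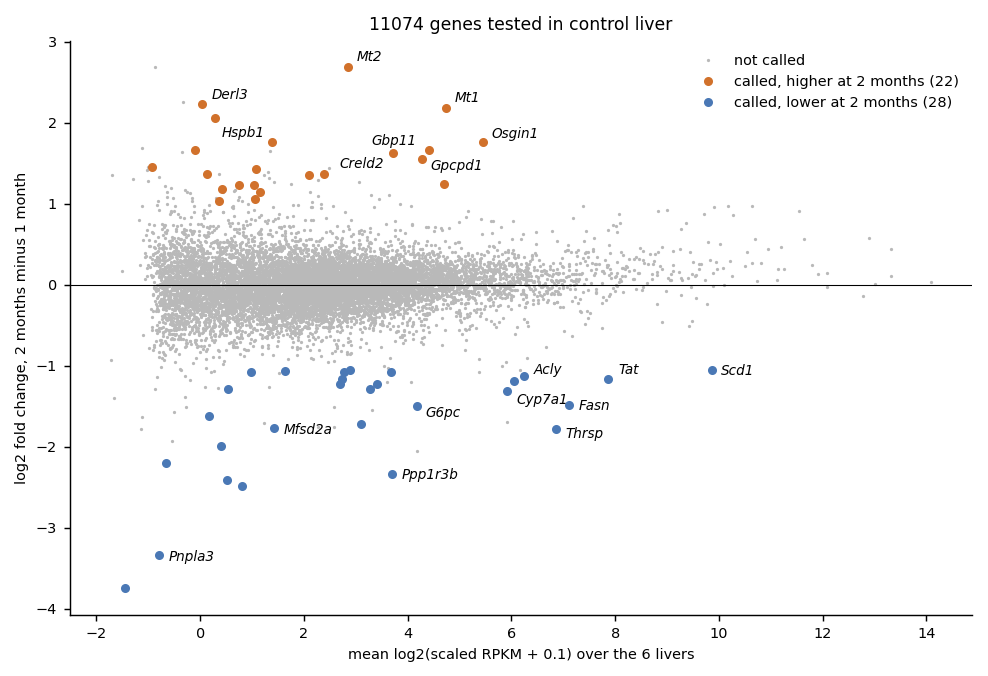
Log2 fold change from 1 to 2 months (vertical axis) against the mean log2(scaled RPKM + 0.1) over the 6 control livers (horizontal axis); each point is 1 of 11074 genes. The 22 genes called higher are orange and the 28 called lower are blue; strongly expressed genes of lipid and glucose metabolism are among the blue points and the metallothioneins Mt1 and Mt2 among the orange ones.

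Among genes of fatty acid and triglyceride synthesis, all 22 listed members passed the filter on low values, of which 8 fell and 0 rose. In all 18 were lower, and in 13 every 2-month liver lay below every 1-month liver, where 7.44% of all tested genes did so. Their median log2 fold change was -0.65. The count of 8 was 5 without the first mouse of 1 month and 4 without the second of 1 month or the first of 2 months. Fasn, the fatty acid synthase (chr11:120805846-120824547, GRCm38), stood at 199, 245 and 243 RPKM in the 3 mice of 1 month and at 81.9, 72.7 and 102 RPKM in those of 2 months. The groups did not overlap, and the 1-month livers were close to each other. The fall was 2.80-fold (log2 fold change -1.48 ± 0.13 SE, adjusted p = 0.00127). Acly, which makes the cytosolic acetyl-CoA that Fasn uses, went from 96.9, 109 and 126 to 55.4, 42.96 and 60.1 RPKM (-1.12 ± 0.12, adjusted p = 0.00239). Thrsp, the lipogenic protein Spot 14, went from 184, 198 and 255 to 69.2, 38.7 and 96.6 RPKM (-1.77 ± 0.23, adjusted p = 0.00753). The second mouse of 2 months had the lowest value of all 3 genes. Gpam, which adds the first fatty acid to glycerol 3-phosphate and which the naming rule did not pick, went from 87.4, 116 and 114 to 61.8, 53.2 and 60.8 RPKM (-0.90 ± 0.12, adjusted p = 0.00926). Fasn, Acly, Thrsp and Gpam kept an adjusted p of at most 0.05 whichever mouse was left out.

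The other members that fell did not pass in every fit that leaves out a mouse. Srebf1, which encodes SREBP-1 and the main transcriptional driver of this programme, was at 132, 128 and 133 RPKM at 1 month and 85.1, 63.1 and 93.2 RPKM at 2 months, a fall of 1.71-fold (adjusted p = 0.0302). It passed in 1 of the 6 fits that leave out a mouse, the one without the third mouse of 1 month (0.0113), and reached 0.112 without the second mouse of 1 month. Scd1, the delta-9 desaturase and one of the most abundant mRNAs of the list, went from 1078, 1326 and 1583 to 600.1, 489 and 973 RPKM (adjusted p = 0.0473). Without the first or second mouse of 1 month it stood at 0.0676 and 0.158, and without the first or second of 2 months at 0.178 and 0.151. Acacb, the acetyl-CoA carboxylase that controls fatty acid entry into mitochondria, went from 15.3, 19.4 and 20.2 to 10.2, 6.31 and 10.997 RPKM (adjusted p = 0.0172, and 0.0683 or 0.0508 without the second mouse of 1 month or the first of 2 months). Pnpla3, a lipid droplet protein, rested on few reads, an estimated 47, 83 and 19 at 1 month and 2, 0 and 5 at 2 months (log2 fold change -3.34, adjusted p = 0.0163). Its adjusted p lay between 0.0508 and 0.0691 without the first or second mouse of 1 month or the first of 2 months. Among members that did not pass, Acaca and Elovl6 had log2 fold changes of -0.68 and -0.66 (adjusted p of 0.0566 and 0.0566) and did not overlap between the groups. Mlxipl, which encodes ChREBP, was at -0.45 (adjusted p = 0.319), and the desaturases Fads1 and Fads2 were at 0.05 and 0.11.

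A pair of called genes outside the list also act in lipid handling. Angptl8, a secreted inhibitor of lipoprotein lipase that is induced by feeding, went from 15.7, 10.97 and 20.4 to 8.07, 2.57 and 5.01 RPKM (-1.72 ± 0.30, adjusted p = 0.0302). Its adjusted p was 0.0728 without the first mouse of 1 month, and 0.0539 and 0.0788 without the second and the third of 2 months. Mfsd2a, a transporter of lysophosphatidylcholine, went from 4.06, 4.13 and 6.47 to 1.71, 0.739 and 2.05 RPKM (-1.77 ± 0.27, adjusted p = 0.0163) and passed without any 1 mouse. Genes of fatty acid oxidation under PPARalpha did not move together in this way, since 0 of 25 tested members passed in limma, 18 were higher and their median was 0.12. Of the 25, 11 had an unadjusted p under 0.05, 6 of them higher and 5 lower, where 1617 of all 11074 genes had one. In limma-voom on estimated reads 4 passed at the adjusted p alone. Over all genes, limma-voom called 88 of 12288 with a fold of at least 2 as well. Ppara, which encodes PPARalpha, and the carnitine transferase Cpt1a were at 0.48 and 0.43 (adjusted p of 0.0822 and 0.102).

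In cholesterol synthesis, 3 of 24 tested members fell and 0 rose, with 22 lower and a median of -0.25. In 8 every 2-month liver lay below every 1-month liver, where 7.44% of all tested genes did so. The count of 3 was 0 without the second mouse of 1 month or the first of 2 months, 1 without the second or the third of 2 months and 6 without the third of 1 month. The last of these fits called 118 genes over all, against 50 with all 6 mice. Mvd, which makes the isoprene unit, was at 8.64, 10.04 and 10.2 RPKM at 1 month and at 5.23, 5.92 and 5.30 RPKM at 2 months, and Lss, which closes the sterol ring, was at 15.7, 20.1 and 20.9 RPKM and at 12.6, 10.7 and 12.1 RPKM. Mvd fell 1.80-fold and Lss 1.65-fold (adjusted p of 0.0202 and 0.0222). Neither passed in 4 of the 6 fits without a mouse, with adjusted p up to 0.0889 and 0.0979 without the second mouse of 1 month. Insig1 and Fdps lay at -0.57 and -0.56 with adjusted p of 0.0530 and 0.0535, whereas Hmgcs1, an early enzyme of the path, was at -0.22 (adjusted p = 0.640) and Srebf2, which encodes SREBP-2, at -0.07 (adjusted p = 0.846). Cyp7a1, the rate-limiting enzyme of bile acid synthesis from cholesterol, went from 63.4, 114 and 112 to 30.7, 44.5 and 43.2 RPKM, a 2.48-fold fall (adjusted p = 0.0213; 0.0656 without the second mouse of 1 month, 0.0703 and 0.0538 without the first and the third of 2 months). It was the 1 of 18 tested members of the bile acid list that passed, and Cyp8b1 of the same path was at 0.27 (adjusted p = 0.387).

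**Figure D2:**
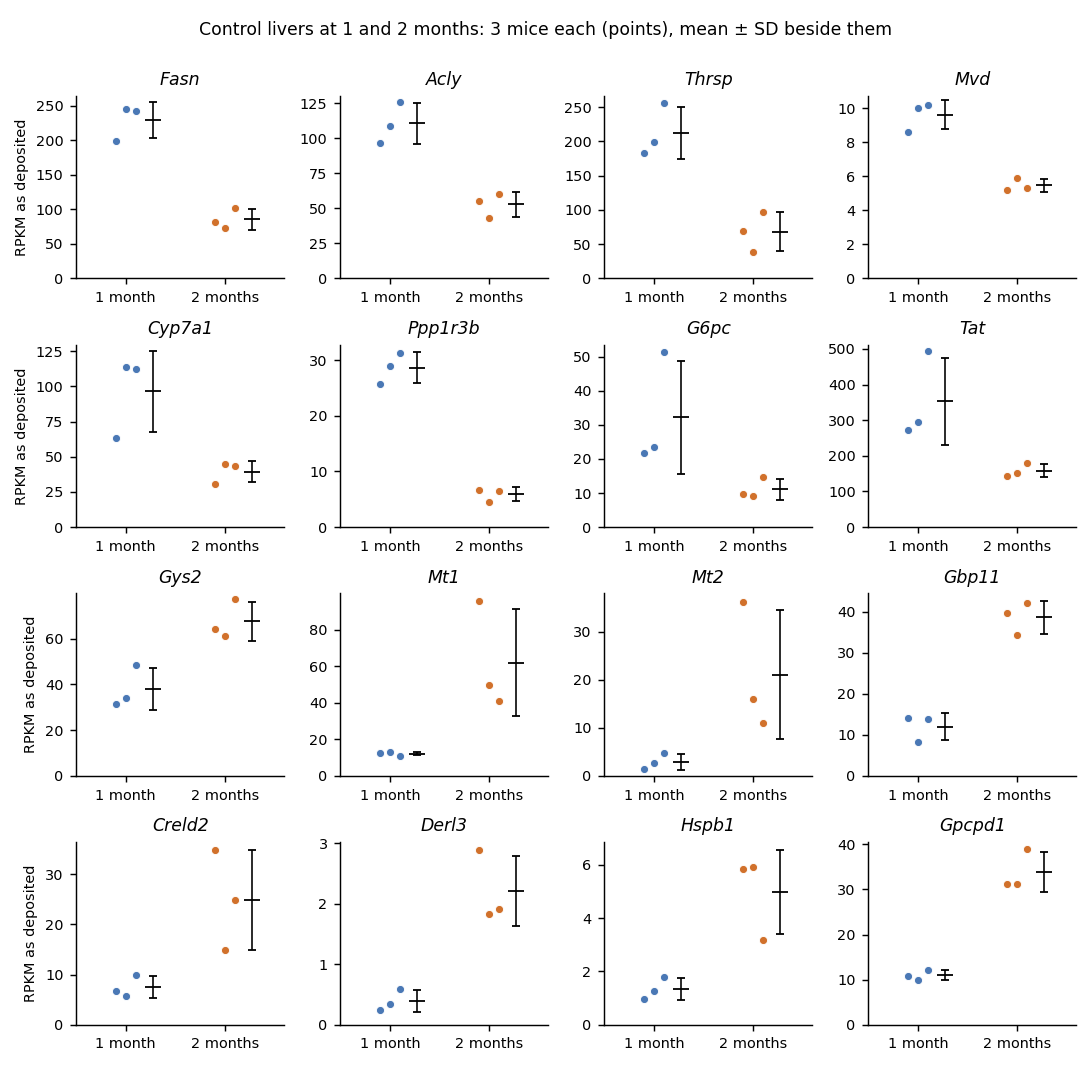
RPKM as deposited (vertical axes, each from 0) of 16 genes in the 3 control livers of 1 month (blue) and the 3 of 2 months (orange), with the mean and SD in black. In each of the 16 panels the groups do not overlap; Mt1 is between 11.1 and 12.96 in the 1-month livers and between 40.8 and 95.5 in those of 2 months.

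In glucose and glycogen metabolism, 4 of 15 tested members fell and 1 rose; the sum of 5 was 1 without the first mouse of 2 months and 3 without the second of 1 month or the second or the third of 2 months. Ppp1r3b (chr8:35375739-35388139), the hepatic subunit that brings protein phosphatase 1 to glycogen and so activates glycogen synthase, had the smallest p of the 11074 genes. It was at 25.7, 28.9 and 31.3 RPKM at 1 month and at 6.74, 4.47 and 6.46 RPKM at 2 months, with every 2-month liver far below the lowest of 1 month. The fall was 5.04-fold (-2.33 ± 0.14, adjusted p = 4.58e-05, and 1.74e-04 to 6.59e-04 with any 1 mouse left out). Gys2, the liver glycogen synthase itself, moved the other way and rose from 31.3, 34.2 and 48.5 to 64.2, 61.3 and 77.2 RPKM (1.73-fold, adjusted p = 0.0172). Gys2 still passed without the third mouse of 1 month (0.00628) but not without any 1 of the other 5, with adjusted p from 0.0508 to 0.0877.

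G6pc, the catalytic subunit of glucose 6-phosphatase, which releases glucose, went from 21.7, 23.5 and 51.3 to 9.63, 9.09 and 14.6 RPKM (-1.50 ± 0.24, adjusted p = 0.0172; 0.0703 and 0.0769 without the first and second mouse of 2 months). Tat, tyrosine aminotransferase, which glucocorticoids and glucagon induce, went from 273, 294 and 494 to 144, 153 and 179 RPKM (-1.17 ± 0.16, adjusted p = 0.00926, and 0.0508 without the first mouse of 2 months). Sds, the serine dehydratase of periportal hepatocytes, was the 1 of 18 urea cycle and periportal members to pass and went from 72.4, 71.5 and 105 to 46.7, 33.4 and 53.7 RPKM (adjusted p = 0.0163; 0.0599 and 0.0539 without the first and second mouse of 2 months). Pck1, the other main control point of glucose production, was at 305, 332 and 596 and 409, 406 and 538 RPKM and overlapped (0.13 ± 0.18, adjusted p = 0.784).

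Chaperones and degradation factors of the endoplasmic reticulum were mostly higher at 2 months, and a few of them passed. Of 26 listed members 23 were tested, 3 rose and 0 fell, 21 were higher, and in 8 the groups did not overlap with 2 months above, where 7.2% of all tested genes did so. Their median log2 fold change was 0.57. Derl3, a channel protein that takes misfolded proteins out of the endoplasmic reticulum, was at 0.239, 0.337 and 0.595 RPKM at 1 month, an estimated 3, 6 and 9 reads, and at 2.88, 1.83 and 1.92 RPKM at 2 months, an estimated 55, 37 and 27 reads. Every 2-month liver held several times the highest value of 1 month (2.23 ± 0.26, adjusted p = 0.00393). Creld2, a secreted chaperone-like protein of the unfolded protein response (chr15:88819646-88826683), went from 6.72, 5.71 and 9.99 to 34.9, 14.9 and 24.8 RPKM (1.63 ± 0.23, adjusted p = 0.0137), and both genes passed without any 1 mouse. Hsp90b1, the abundant chaperone GRP94, went from 117, 119 and 174 to 255, 195 and 217 RPKM (adjusted p = 0.0452). It passed without the third mouse of 1 month (0.00910) and in none of the other 5 fits without a mouse, in which the adjusted p ran from 0.103 to 0.173. Without the same mouse, 14 members of the list passed. That fit called 118 genes over all, against 50 with all 6 mice. In limma 3018 of the 11074 genes had an unadjusted p under 0.05 in it, against 1617. Hspa5, which encodes BiP, was at 167, 158 and 256 and 427, 246 and 333 RPKM, and its groups overlapped by the third mouse of 1 month and the second of 2 months (0.73 ± 0.17, adjusted p = 0.0807). Sdf2l1 and Manf were at 1.11 and 0.84, each with an adjusted p of 0.0566, while Atf4, the translation-controlled arm, was at -0.45 (adjusted p = 0.140) and Xbp1 at 0.37 (adjusted p = 0.226). Syvn1, the ubiquitin ligase of the same degradation path, was outside the list and is named after its values were seen; it went from 11.4, 11.7 and 15.5 to 28.2, 16.97 and 22.8 RPKM (adjusted p = 0.0497, and 0.159 without the first mouse of 2 months).

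The promoters of the 3 members that rose are shown because each holds the spaced pair of motifs through which ATF6 and XBP1 act, the endoplasmic reticulum stress element. The element was searched as CCAAT, 9 bases of any kind and CCACG, on both strands, in windows of 250 bases before to 50 after the RefSeq gene start (GRCm38.p6), and this motif was chosen after the members' values were seen. It was present in 8 of the 20 tested list members with a window, in 16 of 8699 tested genes (0.184%) and in 37 of 27025 genes in all (0.137%). The list was written from genes of the unfolded protein response, so that its high share follows from that choice and not from the change. Capitals mark the element, which runs on the opposite strand where it reads from CGTGG to ATTGG, and each sequence is written 5′ to 3′ on the strand of its gene. The Derl3 window also held an E-box, CACGTG, which did not overlap the element. The Hsp90b1 window also held the sterol element TCACCCCAC, which reads GTGGGGTGA on the strand shown and did not overlap either stress element.
Creld2 promoter (chr15:88819396-88819695, plus strand): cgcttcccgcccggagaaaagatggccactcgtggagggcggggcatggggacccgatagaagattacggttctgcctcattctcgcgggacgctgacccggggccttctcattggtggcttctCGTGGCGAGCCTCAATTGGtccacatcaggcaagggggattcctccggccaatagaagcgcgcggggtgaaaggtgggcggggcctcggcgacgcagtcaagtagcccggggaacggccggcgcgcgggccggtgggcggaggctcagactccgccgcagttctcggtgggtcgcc
Derl3 promoter (chr10:75893148-75893447, plus strand): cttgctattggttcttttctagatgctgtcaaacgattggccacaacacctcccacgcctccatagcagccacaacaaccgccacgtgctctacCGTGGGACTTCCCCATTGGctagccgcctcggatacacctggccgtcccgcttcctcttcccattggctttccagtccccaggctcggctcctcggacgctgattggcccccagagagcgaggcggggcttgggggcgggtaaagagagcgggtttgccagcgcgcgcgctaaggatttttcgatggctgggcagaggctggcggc
Hsp90b1 promoter (chr10:86705395-86705694, minus strand): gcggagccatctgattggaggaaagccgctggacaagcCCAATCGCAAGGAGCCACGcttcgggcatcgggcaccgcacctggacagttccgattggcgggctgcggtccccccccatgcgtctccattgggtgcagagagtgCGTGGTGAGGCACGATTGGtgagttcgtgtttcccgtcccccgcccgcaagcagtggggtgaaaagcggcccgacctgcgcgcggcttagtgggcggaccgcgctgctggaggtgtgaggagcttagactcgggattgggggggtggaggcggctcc
Creld2 and Derl3 held 1 element each and Hsp90b1 held 2. The other 5 members with the element did not pass, at log2 fold changes of 0.73 for Hspa5, 0.57 for Pdia6, 0.54 for Dnajc3, 0.44 for Calr and 0.26 for Canx. A match describes these letters alone, and binding was not measured. In the 7 members of fatty acid and triglyceride synthesis that fell and had a window, neither the E-box CACGTG nor the sterol element TCACCCCAC was found, against 11.9% and 0.770% of tested genes. At such shares 7 windows often hold no match, so that nothing can be read from this absence. The stress element was also found in the windows of Acacb, which fell, and of Syvn1.

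Both metallothioneins rose, and Mt2 had the highest fold change of the genes called higher. It was at 1.46, 2.73 and 4.78 RPKM at 1 month and 36.2, 16.01 and 10.96 RPKM at 2 months, a 6.46-fold rise (2.69 ± 0.40, adjusted p = 0.0157, and 0.0516 without the second mouse of 2 months). Mt1, its neighbour on chromosome 8 (chr8:94179082-94180327), was at 12.4, 12.96 and 11.1 and 95.5, 49.5 and 40.8 RPKM, a 4.55-fold rise (2.19 ± 0.26, adjusted p = 0.00393) that passed without any 1 mouse. The 1-month livers were nearly alike in Mt1, whereas the first mouse of 2 months was the highest of its group for both genes. Among the 33 tested acute phase members, which include both metallothioneins, the third that rose was Lcn2, lipocalin 2, from 0.919, 0.896 and 1.11 to 2.26, 2.15 and 3.23 RPKM (an estimated 15, 19 and 16 and 39, 37 and 45 reads; adjusted p = 0.0163, and 0.0538 without the third mouse of 2 months). In all 29 of the 33 were higher, the median was 0.25, and 6 passed without the third mouse of 1 month. That fit called 118 genes over all, against 50 with all 6 mice. The classical liver acute phase proteins did not pass, with Saa1 at 0.54, Saa2 at 0.27, Orm2 at 0.90 and the fibrinogen chain Fgb at 0.16 (adjusted p of 0.481, 0.718, 0.133 and 0.602).

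Stress-related genes outside the endoplasmic reticulum passed in small numbers. Osgin1, a growth inhibitor induced by oxidative stress (chr8:119434124-119446256), was at 24.6, 18.996 and 26.4 RPKM at 1 month and 105, 80.4 and 65.2 at 2 months. The groups were far apart (3.41-fold, 1.77 ± 0.17, adjusted p = 0.00199, 0.00117 to 0.0103 with any 1 mouse left out). Of 27 tested NRF2 and glutathione genes 0 passed in limma or limma-voom (7 at an unadjusted p under 0.05), with a median of 0.11, and Nfe2l2, which encodes NRF2, was at -0.29 (adjusted p = 0.306). Maff, a small Maf transcription factor, went from 0.741, 1.21 and 1.72 to 3.64, 3.14 and 3.45 RPKM (adjusted p = 0.0155; 0.0524 and 0.0572 without the first and second mouse of 2 months). In the heat shock list, 1 of 21 members rose and 1 fell in limma, 12 had an unadjusted p under 0.05 (9 higher and 3 lower, where 1617 of 11074 genes had one), and 4 passed in limma-voom. Hspb1, the small heat shock protein HSP25, rose from 0.953, 1.27 and 1.79 to 5.85, 5.93 and 3.17 RPKM (1.76 ± 0.26, adjusted p = 0.0151; 0.0524 and 0.0543 without the first and second mouse of 2 months), while Bag3, a co-chaperone of HSP70, fell from 3.92, 4.44 and 5.96 to 2.99, 2.21 and 2.76 RPKM (adjusted p = 0.0236, up to 0.0920 without the second mouse of 2 months). Hspa1b, an inducible HSP70, was at -0.98 (adjusted p = 0.138). Of 17 immediate early genes, 1 passed in limma and 2 in limma-voom, and 5 had an unadjusted p under 0.05, each of them higher. The gene that passed in limma was Junb, at 9.48, 8.45 and 12.4 and 18.5, 17.5 and 17.9 RPKM (adjusted p = 0.0162; 0.0633, 0.0570 and 0.0689 without the second mouse of 1 month or the first or second of 2 months), and Jun was at 0.09.

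Of 31 tested interferon-induced genes 0 passed in limma and 4 in limma-voom, which called 88 of its 12288 genes with a fold of at least 2 as well. Of the 31, 27 were higher, with a median of 0.32, and 13 had an unadjusted p under 0.05 (12 higher and 1 lower). In 8 the groups did not overlap with 2 months above, where 7.2% of all tested genes did so. The interferon-inducible GTPase Gbp11, which was not on that list, was called. It was at 14.1, 8.18 and 13.8 RPKM at 1 month and at 39.8, 34.2 and 42.1 RPKM at 2 months, with the groups far apart (1.66 ± 0.18, adjusted p = 0.00245, 9.68e-04 to 0.0111 with any 1 mouse left out). Irgm2 and Gbp10, GTPases of the same kind and also outside the list, went from 4.96, 3.89 and 5.97 to 9.11, 10.5 and 9.08 RPKM and from 0.585, 0.454 and 0.710 to 1.32, 2.34 and 1.57 RPKM (adjusted p of 0.0262 and 0.0459). They are named after their values were seen. Irgm2 reached 0.0986 and Gbp10 0.147 without the second mouse of 2 months. Near-identical relatives can share reads with the Gbp genes. On the list, Iigp1, Tap1 and Ifit3 were at 0.78, 0.67 and 0.98 (adjusted p of 0.0566, 0.0561 and 0.101), and Stat2 at -0.58 (adjusted p = 0.0822).

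All 13 mRNAs encoded by the mitochondrial genome were higher at 2 months without overlap, where 7.2% of all tested genes were so. Their median was 0.86, and 4 of 13 passed. Cytochrome b (mt-Cytb) was at 527, 645 and 909 RPKM at 1 month and 1424, 1369.5 and 1325 RPKM at 2 months (adjusted p = 0.0166). The values of 2 months were close to each other, and the third mouse of 1 month was the highest of its group. mt-Nd4, mt-Nd3 and mt-Atp6 rose 1.96-fold, 1.97-fold and 1.89-fold (adjusted p of 0.0286, 0.0332 and 0.0497), and mt-Co1, subunit 1 of cytochrome c oxidase, was at 0.44 (adjusted p = 0.290). Without the third mouse of 1 month 11 of the 13 passed, and 0 did without any 1 of the other 5 mice. A fit without a mouse also has fewer livers and so less power. Without scaling of the libraries 0 of the 13 passed. The mitochondrial share of all transcript reads given above moved the same way, but it includes these same values and is no separate observation. The nuclear genes of oxidative phosphorylation had a median of 0.06, with 0 of 51 passing in limma or limma-voom and 1 at an unadjusted p under 0.05.

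**Figure D3:**
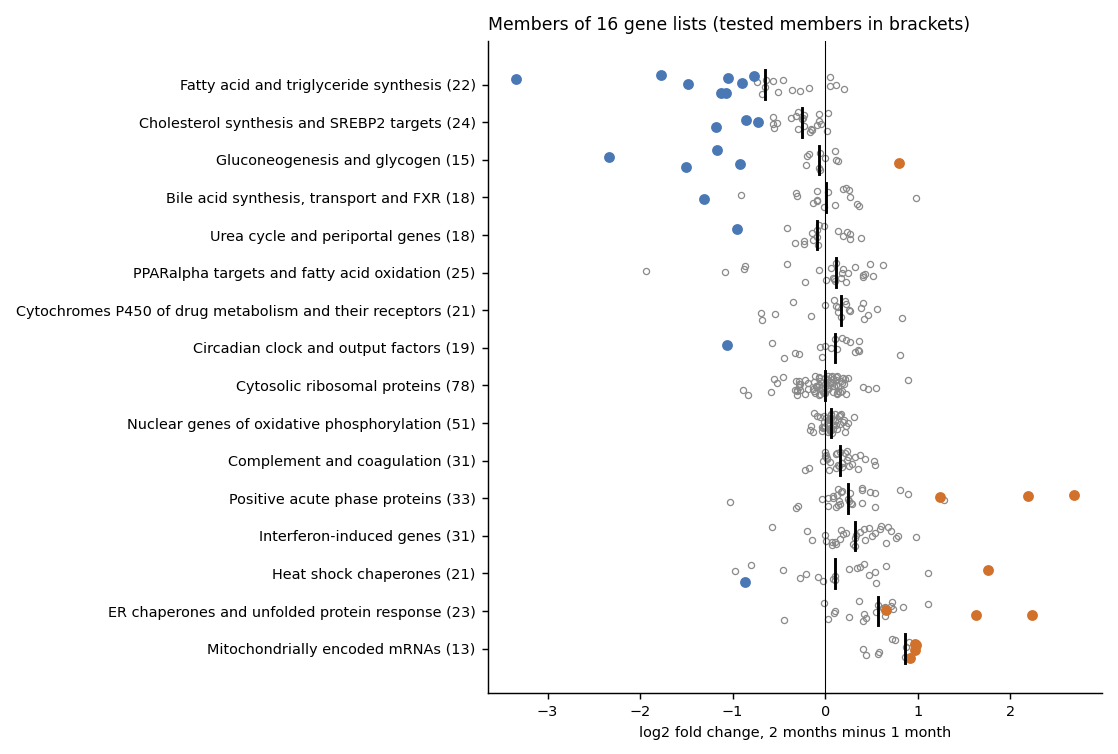
Log2 fold change from 1 to 2 months (horizontal axis) of the tested members of 16 gene lists (vertical axis, number of tested members in brackets); filled points rose (orange) or fell (blue) at an adjusted p of at most 0.05, open points did not pass, and black bars are medians. The median is -0.65 for fatty acid and triglyceride synthesis, 0.57 for chaperones of the endoplasmic reticulum and 0.86 for mitochondrially encoded mRNAs.

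Further genes called at 2 months belong to no single group. Gpcpd1, which breaks down glycerophosphocholine (chr2:132529082-132587729), was at 10.9, 9.96 and 12.1 RPKM at 1 month and 31.3, 31.2 and 38.98 RPKM at 2 months. It had the second smallest p of all genes (2.94-fold, 1.56 ± 0.12, adjusted p = 4.56e-04, 9.68e-04 to 0.00626 with any 1 mouse left out). Bmf, a pro-apoptotic member of the Bcl-2 family, rose from 2.63, 2.99 and 3.83 to 7.20, 7.69 and 11.1 RPKM (adjusted p = 0.00477). Osbpl3, a lipid transfer protein, rose from 1.81, 2.97 and 3.04 to 6.32, 7.45 and 7.05 RPKM (adjusted p = 0.00871). Both passed without any 1 mouse. Car1, a carbonic anhydrase that is abundant in red blood cells, rose from 0.972, 1.34 and 1.91 to 2.94, 3.91 and 2.99 RPKM (adjusted p = 0.0409, and 0.137 without the second mouse of 2 months). Hba-a1, an alpha globin, was at 7.47, 4.35 and 10.7 and 13.98, 13.9 and 15.3 RPKM (adjusted p = 0.0743), the summed blood markers are given above, and the part of blood in the Car1 value was not tested.

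The tubulin gene Tubb2a fell and was at 8.94, 8.22 and 12.2 RPKM at 1 month and 4.10, 4.35 and 4.26 RPKM at 2 months. The 2-month livers differed little among themselves (-1.22 ± 0.13, adjusted p = 0.00258, 0.00600 to 0.0132 with any 1 mouse left out). Tuba1c, another tubulin gene, named after its values were seen, went from 7.51, 6.89 and 9.95 to 3.94, 4.07 and 4.88 RPKM (adjusted p = 0.0137, and 0.0532 without the first mouse of 2 months), and tubulin genes have near-identical relatives that can share reads. Tfrc, the transferrin receptor for iron uptake, was the 1 of 26 haem and iron genes to pass, at 10.01, 9.16 and 9.87 and 4.30, 5.45 and 4.41 RPKM (-1.08 ± 0.16, adjusted p = 0.0155; 0.0541 and 0.0511 without the first and the third mouse of 2 months). Serpina7, the thyroxine-binding globulin, went from 10.5, 17.4 and 21.5 to 5.55, 7.30 and 8.41 RPKM (adjusted p = 0.0301; 0.0990, 0.0884 and 0.0732 without the second mouse of 1 month or the first or second of 2 months), and with Thrsp it made the 2 of 22 members of the thyroid and insulin-like list that fell.

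The daily clock list had 1 of 19 members past the threshold. Per1, a repressor of the clock that glucocorticoids also induce, was at 3.92, 3.92 and 5.12 RPKM at 1 month and 1.86, 1.53 and 3.16 RPKM at 2 months (adjusted p = 0.0497, and 0.162 without the first mouse of 2 months). The clock activators Arntl and Clock were at -0.44 and -0.33 (adjusted p of 0.455 and 0.330), Per2 at -0.57 and Dbp at 0.36 (adjusted p of 0.202 and 0.231). Of 17 clustered histone genes, Hist1h1e rose 1.62-fold and Hist1h1b fell (adjusted p of 0.0424 and 0.0452). Hist1h1b rested on an estimated 14, 37 and 10 reads at 1 month and 5, 3 and 1 at 2 months. Without the second mouse of 1 month its adjusted p was 0.158, while that of Hist1h1e was 0.150 without the first mouse of 2 months. Rny3, a small cytoplasmic Y RNA with an estimated 25, 28 and 33 and 15, 7 and 13 reads, fell (adjusted p = 0.0460, and 0.107 without the first mouse of 1 month). None passed in limma of 10 cell cycle genes (median 0.06), 17 p53 targets (-0.02), 21 drug-metabolizing cytochromes P450 and their receptors (0.17), 20 growth hormone and sex-pattern genes (0.15), 17 major urinary proteins (0.16), 31 complement and coagulation genes (0.16), 23 apolipoprotein genes (0.01), 78 ribosomal protein genes (-0.00), 8 nuclear long RNAs (-0.23) and 7 small structural RNAs (-0.46). In the same order, 3, 4, 10, 4, 2, 8, 3, 7, 2 and 3 of these members had an unadjusted p under 0.05, where 1617 of all 11074 genes had one. In limma-voom 0, 0, 4, 2, 1, 1, 0, 0, 1 and 1 of them passed. The 1 of 20 pericentral genes that fell was Cyp7a1, and the 1 of 12 hepatocyte markers that fell was Tat.

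The same interval was measured in irradiated mice, whose libraries are not shared with the control comparison. After 28Si, 83 of 11059 genes (0.751%) were called between 1 and 2 months, after 56Fe 21 of 11151 (0.188%) and after 16O 2 of 11105 (0.018%). Of the 50 genes called in control livers, 48 were tested after 28Si, and 43 of the 48 moved in the control direction there. Of these 24 passed at an adjusted p of at most 0.05, where 2.13% of all genes tested after 28Si passed, and 0 passed in the opposite direction. After 56Fe, 21 of the 50 moved in the control direction and 29 in the opposite one, with 3 and 2 passing where 0.986% of all tested genes passed, and after 16O 30 of 47 moved in the control direction and 17 in the opposite one, with 0 passing in either. The median change of the called genes, signed so that the control direction is positive, was 1.09 after 28Si, -0.06 after 56Fe and 0.17 after 16O on the log2 scale, against 1.37, 1.40 and 1.37 for the same genes in control livers. The genes were selected for their control change, and such a choice tends to enlarge the control values. The arms also differed in clock genes at 1 month. Arntl was at 0.760, 0.635 and 0.710 RPKM in controls, 3.80, 2.31 and 2.88 after 28Si, 0.498, 0.420 and 0.422 after 56Fe and 0.224, 0.177 and 0.284 after 16O. The median change of the daily clock list was 0.10 in controls and 0.51, -0.24 and -0.16 after 28Si, 56Fe and 16O. The part of the hour of dissection in the differences between arms was not tested.

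The difference of the intervals was tested itself over 12 libraries. Of the 50 genes, 1 differed between control and 28Si, 22 differed between control and 56Fe and 5 between control and 16O at an adjusted p of at most 0.05, where 0.0261%, 1.12% and 0.0608% of all genes tested did (0.651% for 56Fe with a fold of at least 2 as well). The levels show which group lay where. Ppp1r3b was at 23.2, 15.9 and 24.5 RPKM in the 3 mice of 28Si at 1 month, at 10.4, 5.09 and 6.73 RPKM in those of 56Fe and at 13.9, 20.1 and 13.5 RPKM in those of 16O. The 28Si livers of 1 month lay below the 1-month controls (25.7, 28.9 and 31.3 RPKM) but nearest to them, those of 16O overlapped the 28Si livers, and those of 56Fe were in or near the range of the 2-month controls. At 2 months Ppp1r3b stood at 5.71, 3.39 and 11.98 RPKM after 28Si, 5.802, 8.86 and 8.52 after 56Fe and 6.39, 4.79 and 7.81 after 16O, each below the lowest 1-month control. The change of control minus that of 56Fe was -2.38 ± 0.28 (adjusted p = 0.00153).

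Mt1 was low in the 1-month livers of 2 arms and high in the others. It was at 12.9, 3.73 and 5.63 RPKM after 28Si at 1 month, at or below the level of the controls, but at 54.7, 72.99 and 37.5 RPKM after 56Fe and 120.1, 44.01 and 62.1 RPKM after 16O. At 2 months the values were 91.3, 88.5 and 88.2, 81.97, 26.5 and 34.3 and 43.6, 40.1 and 55.5 RPKM after 28Si, 56Fe and 16O. Mt1 thus rose after 28Si (3.86 ± 0.29, adjusted p = 9.41e-04), as did Mt2 (5.09 ± 0.43, adjusted p = 0.00116), whereas Mt1 was at -0.39 ± 0.36 after 56Fe and -0.63 ± 0.28 after 16O. Fasn and Acly fell after 28Si (-1.08 ± 0.19 and -1.17 ± 0.12, adjusted p of 0.0219 and 0.00339) and were at 0.03 and 0.26 after 56Fe (adjusted p of 0.970 and 0.568). Tubb2a fell after 28Si (-2.21 ± 0.25, adjusted p = 0.00353) and rose after 56Fe (1.52 ± 0.14, adjusted p = 0.00101).

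Creld2 rose after 28Si (1.21 ± 0.20, adjusted p = 0.0175) and after 56Fe (2.48 ± 0.13, adjusted p = 6.14e-05), and stood at 6.26, 5.50 and 7.37 RPKM at 1 month and 38.7, 30.8 and 43.5 RPKM at 2 months after 56Fe. The Creld2 change was not shown to differ between control and any arm (adjusted p of 0.829, 0.215 and 0.782 for 28Si, 56Fe and 16O). Derl3 rose after both as well (1.91 ± 0.38 and 2.50 ± 0.26, adjusted p of 0.0370 and 0.00242). After 16O, Creld2 was at 1.12 ± 0.31 and Derl3 at 0.11 ± 0.33 (adjusted p of 0.532 and 0.990). The list medians after 28Si, 56Fe and 16O were 0.22, 0.66 and 0.16 for the endoplasmic reticulum list, and -0.53, -0.02 and -0.10 for fatty acid and triglyceride synthesis. Cyp7a1 fell after 56Fe too (-1.10 ± 0.18, adjusted p = 0.0267) and was at 1.01 ± 0.25 after 28Si (adjusted p = 0.0824). Osgin1 alone of the 50 differed from 28Si, at 48.8, 52.9 and 44.4 RPKM at 1 month and 42.8, 39.2 and 49.5 RPKM at 2 months after 28Si (1.84 ± 0.24, adjusted p = 0.0101, and 0.0581 without the second control mouse of 2 months).

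**Figure D4:**
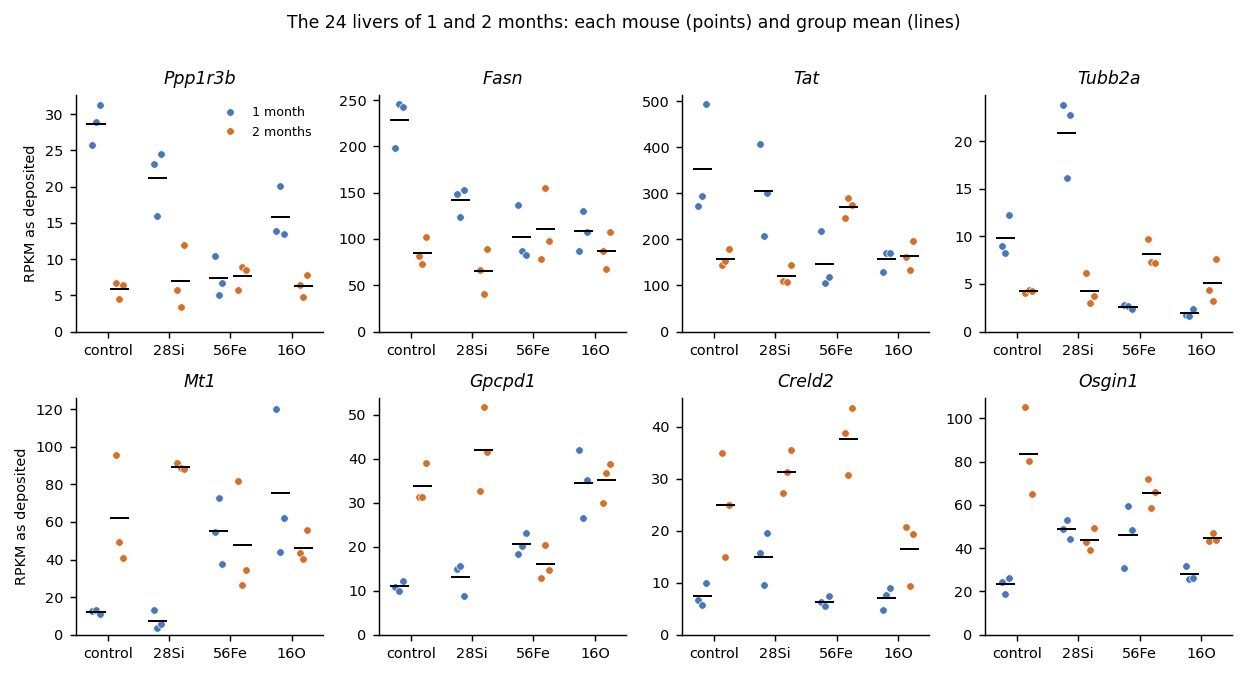
RPKM as deposited (vertical axes, each from 0) of 8 genes in the 3 livers of each group at 1 month (blue) and 2 months (orange), for control mice and mice given 28Si, 56Fe or 16O (horizontal axes), with group means as black lines. For Ppp1r3b and Mt1 the 1-month livers of control and 28Si do not overlap those of 56Fe, while Creld2 is higher at 2 months than at 1 month in each arm's mean.

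The control groups of 4, 9 and 12 months stand apart from those of 1 and 2 months in their RNA composition. Reads in transcripts made up 76.4% to 86.2% of mapped reads in these 9 libraries against 46.6% to 62.4% in the 6 of 1 and 2 months, and protein-coding genes 94.2% to 95.7% of transcript reads against 84.6% to 87.3%. Malat1 and Neat1 took 0.250% to 0.550% against 0.925% to 2.77%, and mitochondrial reads 2.87% to 3.90% against 5.86% to 9.09%. The part of this shift in the values that follow was not tested. Given as log2 differences from the 1-month mean after scaling over all 15 control libraries, and as a description since the 1-month mice are shared, Fasn was at -1.83, -0.85 and -1.57 at 4, 9 and 12 months. Its mean was below that of 1 month at every later time. Ppp1r3b was at -0.99, -0.98 and -1.33, less low than at 2 months. Mt1 stayed above its 1-month level, at 3.35, 1.99 and 3.47, as did Creld2 at 2.34, 1.78 and 1.33 and Gbp11 at 1.90, 1.13 and 1.47. After this scaling Osgin1 was at -0.52, -0.81 and -0.80, below its 1-month level at each later time. In RPKM as deposited its mean was 23.3 at 1 month and 23.4, 19.7 and 19.1 at 4, 9 and 12 months. Its direction at 4 months thus depended on the scaling. Mfsd2a was at 0.31, 0.95 and 0.46, above its 1-month level. Cytochrome b of the mitochondrial genome was below its 1-month level as well, at -0.79, -1.35 and -1.02. Thrsp was at -0.39, 0.12 and -1.12, and Scd1 at -0.94, 1.01 and 0.35. As deposited, the mean of Thrsp was 212 RPKM at 1 month and 230 RPKM at 4 months, so its direction there also depended on the scaling.

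**Figure D5:**
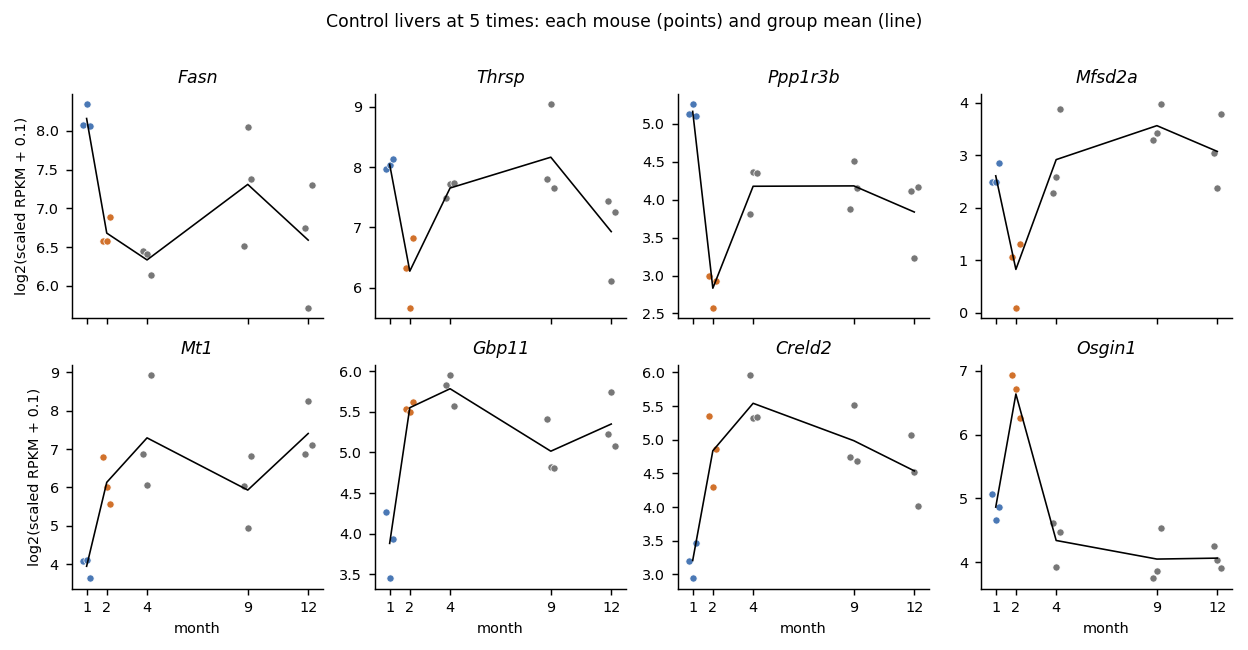
Log2(scaled RPKM + 0.1) of 8 genes (vertical axes) in the 15 control livers at 1, 2, 4, 9 and 12 months (horizontal axis); points are mice, blue at 1 month, orange at 2 months and grey later, and the line joins group means. Mt1, Gbp11 and Creld2 have later means above the 1-month mean, and Osgin1 has its highest mean at 2 months.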

How the data were processed

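RNA of the left liver lobe was depleted of ribosomal RNA and sequenced as paired reads of 50 bases. Per the study's methods and the submitters' processing notes, the authors trimmed 14 bases, mapped reads to GRCm38 with Ensembl annotation 97 in CLC Genomics Workbench 12.0.3 at 95% length and similarity, and deposited RPKM values per transcript.

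RPKM values were summed over the 123811 transcripts into 38204 genes by name. Scaling used the trimmed mean of log ratios without weights (trimming 30% of log ratios and 5% of mean levels). Genes at 0.5 RPKM or more in at least 3 of 6 libraries were tested on log2(RPKM + 0.1) by empirical Bayes with a trend (limma 3.58.1; R 4.3.3), with Benjamini-Hochberg adjustment over all genes tested. Such fold changes understate the change of low genes. RPKM of each mouse are as deposited and unscaled; log2 fold changes, folds and SEs are from the scaled log2 values. Since the values are not counts, no count test was the main one. Depth was recovered from single-transcript genes, whose low values (up to 30 reads) are whole multiples of 1 read within 0.02, and read numbers are estimates. Differences of the interval between arms were contrasts over 12 libraries. Library shares were compared with exact permutation tests. In data simulated for the control comparison (11074 genes, drawn independently), 100 genes were changed 2-fold and 100 were changed 4-fold. Of these 59% and 97% passed the adjusted p in the right direction, whatever their fold, and so did 4 unchanged genes in either direction. Spread shared between the genes of a library was not simulated, so that these shares do not describe the 50 calls.

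Genes were named by rule. Up to 12 called genes in each direction with mean log2(RPKM + 0.1) of at least 1, no overlap between groups and an ordinary symbol were taken by size of change, with up to 5 members past the threshold and the first 2 tested members of each list; names outside the rule are marked where that matters or serve as further members of a list. The members compared, the 39 lists and the tests were chosen with earlier results of these data known, and the element of endoplasmic reticulum stress was added after seeing the data. Promoter windows were RefSeq's, and 35 of 51 genes looked up had one. Some genes that the rule names are not reported here. Pairing by replicate number was not used, since deviations of same-numbered mice correlated at -0.11, 0.12 and 0.03. Alternatives covered scaling, filter, pseudocount, libraries in the fit, tool, the replicate block and leaving out each mouse.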

Additional observations from a re-analysis of the deposited data

Results flagged for a closer look

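In 29 cases the change from 1 to 2 months of a gene named above differed between control mice and an irradiated arm in a test of that difference (limma, Benjamini-Hochberg adjusted p of at most 0.05). Values are the control log2 fold change minus that of the arm. The genes were looked at because of their control change, which enlarges such differences.

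Against 28Si, Osgin1 differed by 1.84 (adjusted p = 0.0101, and 0.0581 without the second control mouse of 2 months).

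Against 56Fe, genes of lipid synthesis differed by -1.52 for Fasn, -1.39 for Acly, -1.52 for Mvd and -1.02 for Lss (adjusted p from 0.0165 to 0.0473). In glucose and amino acid metabolism the difference was -2.38 for Ppp1r3b, -2.06 for Tat, 1.23 for Gys2 and -1.76 for Sds (adjusted p from 0.00136 to 0.00341). Among stress genes it was 2.57 for Mt1, 3.15 for Mt2, 1.42 for Lcn2 and -1.25 for Bag3 (adjusted p from 0.00384 to 0.0473). Among interferon-inducible GTPases it was 2.18 for Gbp11, 1.01 for Irgm2 and 2.11 for Gbp10 (adjusted p from 0.0165 to 0.0346). The other genes were Tfrc at -1.98, Serpina7 at -2.71, Gpcpd1 at 1.99, Bmf at 1.13, Osbpl3 at 2.05, Tubb2a at -2.75, Tuba1c at -1.48 and Syvn1 at -0.94 (adjusted p from 6.90e-06 to 0.0433). For Syvn1 the control change was a rise and the negative difference stands for a higher value of the 56Fe change.

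Against 16O, the difference was 1.05 for Gys2, 2.81 for Mt1, -2.49 for Serpina7, 1.56 for Gpcpd1 and -2.46 for Tubb2a (adjusted p from 0.0112 to 0.0496). With each of the 6 control mice left out in turn, 15 to 22 of the 23 differences from 56Fe and 3 to 5 of the 5 from 16O still passed, and each kept its sign. Those from 56Fe that ended without at least 1 of these mice were Fasn, Lss, Mt1, Mt2, Lcn2, Irgm2, Bmf and Syvn1, with the fewest left without the second mouse of 2 months, and those from 16O were Gys2 and Mt1. Irradiated mice were not left out.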

How the results depend on the processing

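None of the 51 genes examined changed direction under any alternative run. Most of them were named because they passed in these same livers. Where the groups do not overlap, leaving out a mouse cannot readily turn the sign, so a kept direction is no separate support. Of the 51, 26 were no longer past the threshold without scaling, 32 without a filter, and 29 with the spread taken from all 15 control libraries; the other settings moved at most 10, apart from leaving out a mouse. The cause was not tested.

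Against 50 genes called (22 higher, 28 lower), no filter gave 21 (9 and 12), a pseudocount of 1 RPKM gave 33 (13 higher), the 15 control libraries gave 30 (11 lower), limma-voom on estimated reads gave 88 (49 higher), all 24 libraries of 1 and 2 months gave 35 higher, and values without scaling 17 lower. With a mouse left out, the calls ranged from 31 to 118, those higher from 13 to 68 and those lower from 16 to 50. The numbers of the mice did not pair them (correlations between -0.11 and 0.12), and a replicate block gave 81 calls (39 higher). Among the named genes 1 no longer passed the adjusted p with the block and 1 passed only with it.

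Members past the adjusted p alone moved as follows, and the number of all genes past it in the alternative runs was not taken. Of cholesterol synthesis (3), 6 passed with relative log expression scaling, with a filter at 1 RPKM and with limma-voom, 1 without scaling, and 0 without a filter or with 15 control libraries (0 to 6 with a mouse left out). Of fatty acid and triglyceride synthesis (8), 4 passed without scaling or without a filter and 3 with 15 control libraries (4 to 12). Of gluconeogenesis and glycogen (5), 1 passed without scaling, 2 without a filter, and 3 with 15 control or with 24 libraries (1 to 5). Of acute phase proteins (3), 1 passed without a filter, 0 with 15 control libraries and 5 with limma-voom (3 to 6). Of the endoplasmic reticulum list (3), 1 passed without a filter, 9 with 24 libraries, 8 with the replicate block and 10 with limma-voom (2 to 14). Of mitochondrial mRNAs (4), 0 passed without scaling or without a filter, 1 with a filter at 0.1 RPKM, 2 with 24 libraries and 11 with limma-voom (0 to 11).

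For the difference between control and 28Si (3 genes called), values without scaling gave 1, and leaving out a mouse 0 to 6. For 56Fe (75), no scaling gave 38, a pseudocount of 1 RPKM gave 42, and leaving out a mouse 43 to 118. For 16O (7), the replicate block gave 34 and leaving out a mouse 3 to 29. Genes with few reads, such as Pnpla3, Derl3, Lcn2, Rny3 and Hist1h1b, are the least precise.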
